A study of Homo sapiens with 4 samples.

Results

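Signals from growth factor receptors pass through RAS and the kinases RAF, MEK and ERK, and ERK switches on genes whose products then restrain the same pathway. The 10 genes described here are of that kind. The dual-specificity phosphatase genes DUSP4, DUSP5 and DUSP6 encode enzymes that remove phosphate from MAP kinases, DUSP6 in the cytoplasm and DUSP4 and DUSP5 in the nucleus. The Sprouty genes SPRY1, SPRY2 and SPRY4 and the Spred genes SPRED1 and SPRED2 encode inhibitors that act between receptor and RAF. PHLDA1 encodes a pleckstrin homology-like protein induced by ERK, and ETV5 an ETS transcription factor of the PEA3 group that is induced by FGF and ERK signalling.

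The 10 genes were chosen by name as members of this feedback group, and the group was chosen by a measured value: the log2 change of DUSP6 on SOX2 siRNA went in opposite directions in the 2 cell lines. Every siRNA change of a member given here is therefore a description and has no test. The members were read by 18 probes, of 48801 on the array, and are 10 of 18852 genes with a value. The arrays were Illumina HumanHT-12 v3 BeadChips, which hold oligonucleotide probes on beads, and the cells were H520 and LK2, both established human lung squamous cell carcinoma lines. Each line received pooled siRNA against SOX2, a transcription factor gene, or scrambled control siRNA that targets no gene, and total RNA was taken 48 h later. The 4 groups were H520 control siRNA, H520 SOX2 siRNA, LK2 control siRNA and LK2 SOX2 siRNA, with 1 array each and no replicate in any group, and precision is limited by how few arrays there are. The 2 lines cannot stand for lung squamous carcinoma as a whole.

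The values were the authors' processed log2 values, centred per probe, so they show differences between arrays for one gene but no level that can be set against another gene or against background. A change below is the log2 value with SOX2 siRNA less the log2 value with control siRNA in the same line, and a gene with several probes has their mean. SOX2 itself was at 0.28 on H520 control, -0.38 on H520 SOX2 siRNA, 0.14 on LK2 control and -1.97 on LK2 SOX2 siRNA, a change of -0.66 in H520 and -2.11 in LK2. The remaining SOX2 signal by its probes was 63.2 and 63.8% in H520 and 19.9 and 26.9% in LK2, so the knockdown was unequal between the lines, and its part in the results below was not tested. The 6 markers of leukocytes, fibroblasts and endothelial cells had changes from -0.20 to 0.21, and since the values are centred, presence or absence of any cell type could not be read.

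Promoter windows of 7 of the 10 members were read from the RefSeq table of build GRCh38.p14. Windows on the chromosome that carries DUSP4 were left out before the search, and DUSP5 and ETV5 had none. The 3 shown here belong to DUSP6, SPRY2 and SPRY4, which had higher values in H520 and lower values in LK2 on SOX2 siRNA. DUSP4 and SPRED1 had those signs too. DUSP4 is not shown since its windows were left out, and SPRED1 since its H520 change was 0.00. Each runs 5′ to 3′ on the minus strand, from 250 bases before the start site to 50 after it. Capitals mark a core SOX motif (AACAAT) or a core ETS motif (CCGGAA), searched on both strands, and these motifs do not overlap each other in the windows. The DUSP6 window lies at chr12:89352452-89352751, the SPRY2 window, the one farthest upstream of 3 listed, at chr13:80341077-80341376, and the SPRY4 window at chr5:142324198-142324497.
DUSP6: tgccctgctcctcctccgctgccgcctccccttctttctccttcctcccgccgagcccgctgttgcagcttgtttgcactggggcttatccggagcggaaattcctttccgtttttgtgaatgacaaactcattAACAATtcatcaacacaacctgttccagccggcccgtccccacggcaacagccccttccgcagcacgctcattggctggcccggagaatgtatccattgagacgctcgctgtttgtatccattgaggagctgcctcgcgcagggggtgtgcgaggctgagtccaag
SPRY2: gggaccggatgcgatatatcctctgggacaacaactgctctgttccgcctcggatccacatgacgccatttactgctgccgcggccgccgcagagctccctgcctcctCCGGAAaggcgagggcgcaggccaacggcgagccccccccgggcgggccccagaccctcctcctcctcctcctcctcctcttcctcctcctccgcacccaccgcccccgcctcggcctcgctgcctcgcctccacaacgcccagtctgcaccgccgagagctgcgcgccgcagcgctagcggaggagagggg
SPRY4: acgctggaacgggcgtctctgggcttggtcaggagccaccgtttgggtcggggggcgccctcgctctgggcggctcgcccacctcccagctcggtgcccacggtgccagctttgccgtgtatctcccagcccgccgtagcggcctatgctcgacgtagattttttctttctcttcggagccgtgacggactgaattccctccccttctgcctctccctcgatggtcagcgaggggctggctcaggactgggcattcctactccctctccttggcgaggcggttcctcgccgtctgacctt
The DUSP6 window held 1 SOX core that begins 116 bases upstream of the start site, and the SPRY2 window 1 ETS core that begins 142 bases upstream. The SPRY4 window held neither, nor did the other SPRY2 windows listed. Of 35116 promoter windows of the same length, 10.1% held the SOX core and 17.2% the ETS core, so each match is a description of these letters only. Members without that pattern held them too, with an ETS core in a window of SPRY1 and in that of PHLDA1, and a SOX core in a window of SPRED2. Another window of SPRY1 and another of SPRED2 held neither, and the SPRED1 window held neither.

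DUSP6, a phosphatase selective for ERK, was higher with SOX2 siRNA in H520 and lower in LK2. Its value was -0.24 on H520 control, 0.38 on H520 SOX2 siRNA, -0.96 on LK2 control and -1.62 on LK2 SOX2 siRNA. The H520 treated array was thus the highest of the 4 and the LK2 treated array the lowest, with the control arrays in between. The log2 change was 0.63 in H520, a 1.54-fold higher value, and -0.66 in LK2, a 1.58-fold lower value. Both DUSP6 probes, annotated to different transcripts of the gene, gave these directions. Probe ILMN_2396020 changed by 0.75 in H520 and -0.81 in LK2. Probe ILMN_1677466 changed by 0.50 and -0.52. A readthrough gene, POC1B-DUSP6, is annotated over DUSP6 on the same strand, and whether these probes also read it was not tested.

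These values are the ones that put the group forward, and they are read here as they stand. Across 3934 genes with 2 probes, the probes of a gene differed with a pooled SD of 0.18 in H520 and 0.21 in LK2, so each DUSP6 change was larger than the spread between probes. That spread is between probes read on the same pair of arrays and does not replace a replicate. DUSP6 was 1 of 3 genes that were at least 1.5-fold higher in H520 and at least 1.5-fold lower in LK2, 0.0159% of all genes, and nothing is read from that share because the contrast chose the gene. By size of the difference between the lines' responses, -1.29 for DUSP6, it ranked 72 of 18852 genes. When the 4 processed columns were quantile-normalized again, the changes were 0.90 in H520 and -0.42 in LK2, with the same directions but the LK2 change under 1.5-fold. By probe ILMN_1677466 alone neither change reached 1.5-fold.

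DUSP4, which acts on ERK and other MAP kinases in the nucleus, went the same way by much smaller amounts. It was at -0.08 on H520 control, 0.08 on H520 SOX2 siRNA, 0.02 on LK2 control and -0.09 on LK2 SOX2 siRNA. Its 4 values all lay close to 0, the changes were 0.16 in H520 and -0.12 in LK2, and both were under the spread between probes of a gene. Its 2 probes agreed in direction, with 0.15 and 0.17 in H520 and -0.13 and -0.10 in LK2.

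DUSP5, a nuclear phosphatase for ERK, was higher with SOX2 siRNA in both lines. It was at 0.18 on H520 control, 0.56 on H520 SOX2 siRNA, -0.78 on LK2 control and -0.18 on LK2 SOX2 siRNA. Both H520 arrays were above both LK2 arrays, and within each line the treated array was the higher one. The log2 change was 0.39 in H520 and 0.60 in LK2, the latter a 1.52-fold higher value, by its single probe. With renewed quantile normalization the changes were 0.66 and 0.44, so that H520 and not LK2 passed 1.5-fold. In LK2, then, the nuclear phosphatase gene DUSP5 and the cytoplasmic phosphatase gene DUSP6 differed in opposite directions on the same pair of arrays.

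**Figure D1:**
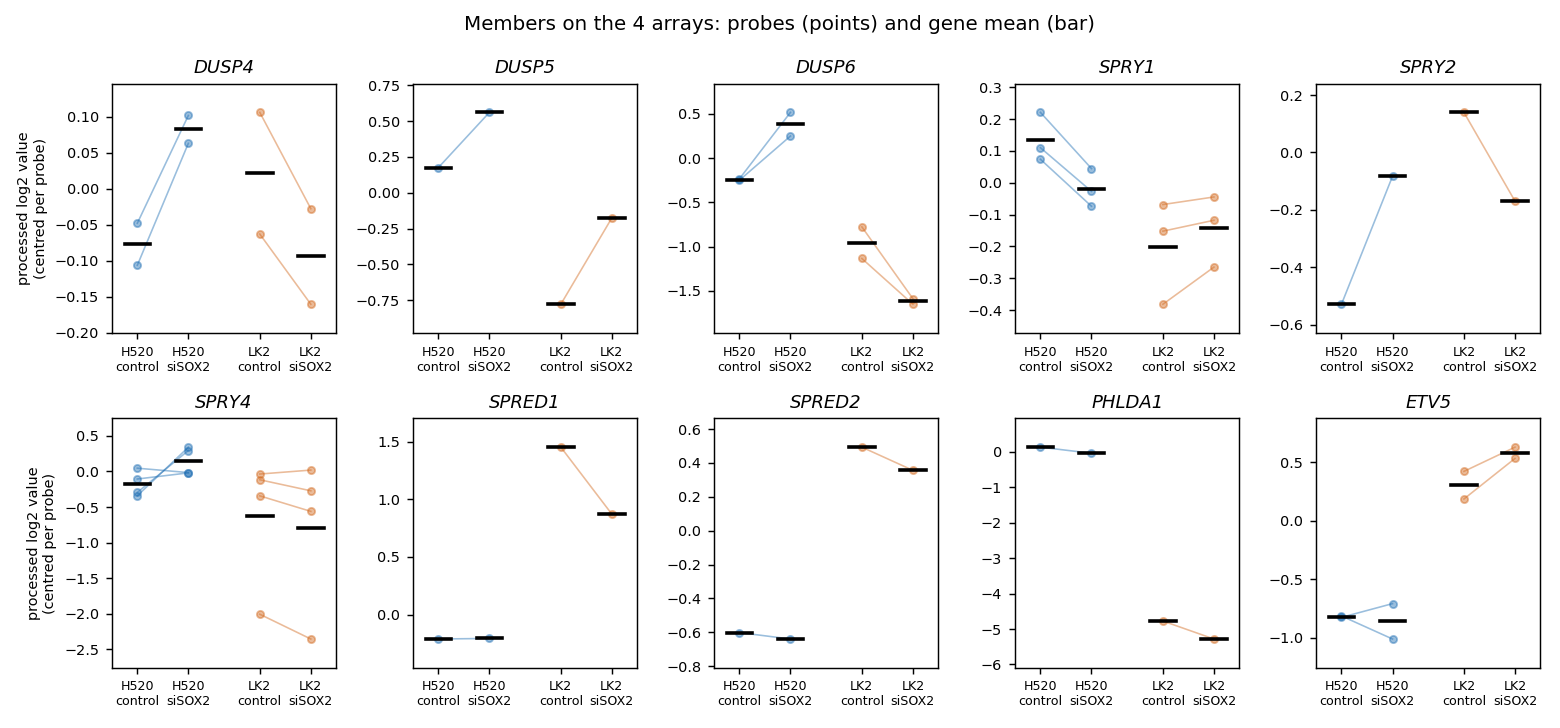
Processed log2 value, centred per probe, of each of the 10 members on the 4 arrays (H520 in blue, LK2 in orange). Points joined by a line are single probes, the black bar is the gene mean, each panel has its own vertical scale, and there is 1 array per group. DUSP6 goes from -0.24 to 0.38 in H520 and from -0.96 to -1.62 in LK2, and PHLDA1 lies at -4.77 and -5.28 in LK2.

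The Sprouty genes differed among themselves. SPRY2, an inhibitor of RAS and RAF activation by receptors, was at -0.53 on H520 control, -0.08 on H520 SOX2 siRNA, 0.14 on LK2 control and -0.17 on LK2 SOX2 siRNA. The log2 change by its 1 probe was 0.45 in H520 and -0.31 in LK2. On the control arrays SPRY2 was higher in LK2, by 0.67, and on the treated arrays it was lower there, by -0.09, so the order of the lines turned with treatment. Neither change reached 1.5-fold, although the H520 change was 0.77, past it, when the columns were quantile-normalized again.

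SPRY4, another inhibitor of receptor signalling to RAS, was at -0.17 on H520 control, 0.15 on H520 SOX2 siRNA, -0.63 on LK2 control and -0.79 on LK2 SOX2 siRNA. The gene mean changed by 0.32 in H520 and -0.17 in LK2, but its 4 probes fell into unlike pairs. Probe ILMN_1797596 changed by 0.68 in H520 and -0.22 in LK2. Probe ILMN_2086105 changed by 0.59 and -0.35. The other two probes were near 0 in H520, ILMN_1688811 at -0.06 and ILMN_1741168 at 0.09, and at -0.16 and 0.06 in LK2. The SPRY4 change in H520 therefore rested on 2 of 4 probes, and by these it was above 1.5-fold.

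SPRY1 did not follow SPRY2 and SPRY4. It was at 0.13 on H520 control, -0.02 on H520 SOX2 siRNA, -0.20 on LK2 control and -0.14 on LK2 SOX2 siRNA. The change was -0.15 in H520, from -0.18 to -0.14 over its 3 probes, and 0.06 in LK2, from 0.02 to 0.12. These changes were under the spread between probes of a gene.

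The Spred genes, whose products hold RAF inactive and recruit the RAS inhibitor neurofibromin, differed from each other in LK2. SPRED1 was at -0.21 on H520 control, -0.21 on H520 SOX2 siRNA, 1.45 on LK2 control and 0.87 on LK2 SOX2 siRNA. It was the same on both H520 arrays to within 0.01 and lower by 0.58 on the treated LK2 array, just short of 1.5-fold. SPRED2 was at -0.60 and -0.64 on the H520 arrays and at 0.49 and 0.36 on the LK2 arrays, control first. Its changes of -0.04 in H520 and -0.14 in LK2 were small, and each Spred gene had 1 probe.

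PHLDA1 was at 0.13 on H520 control, -0.04 on H520 SOX2 siRNA, -4.77 on LK2 control and -5.28 on LK2 SOX2 siRNA. Its change was -0.17 in H520 and -0.51 in LK2 by 1 probe, and the LK2 change was only -0.11 with renewed quantile normalization. Whether its LK2 signal stood above background was not tested. ETV5 was at -0.82 and -0.86 on the H520 arrays and at 0.30 and 0.58 on the LK2 arrays, control first. Its change was -0.04 in H520, with probes at -0.20 and 0.12 that disagreed in sign, and 0.28 in LK2, with probes at 0.21 and 0.35.

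Across the 10 members, 6 were higher and 4 lower with SOX2 siRNA in H520, with a median of 0.08 against 0.00 over all genes. In LK2, 3 were higher and 7 lower, with a median of -0.15 against 0.00. The 5 members higher in H520 and lower in LK2 were DUSP4, DUSP6, SPRY2, SPRY4 and SPRED1, where 23.7% of all genes had those signs. Past 1.5-fold there was 1 member higher in H520 (DUSP6), where 0.806% of genes were, and 0 lower, where 1.07% were. In LK2 there was 1 member higher (DUSP5), where 1.9% of genes were, and 1 lower (DUSP6), where 1.3% were. With renewed quantile normalization the members past 1.5-fold were 3 in H520 (DUSP5, DUSP6 and SPRY2, all higher) and 0 in LK2. The median size of a change, without its sign, was 0.17 for the members and 0.11 for all genes in H520, and 0.29 and 0.12 in LK2. Since these contrasts chose the group, the counts are given beside their background and nothing is read from them.

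**Figure D2:**
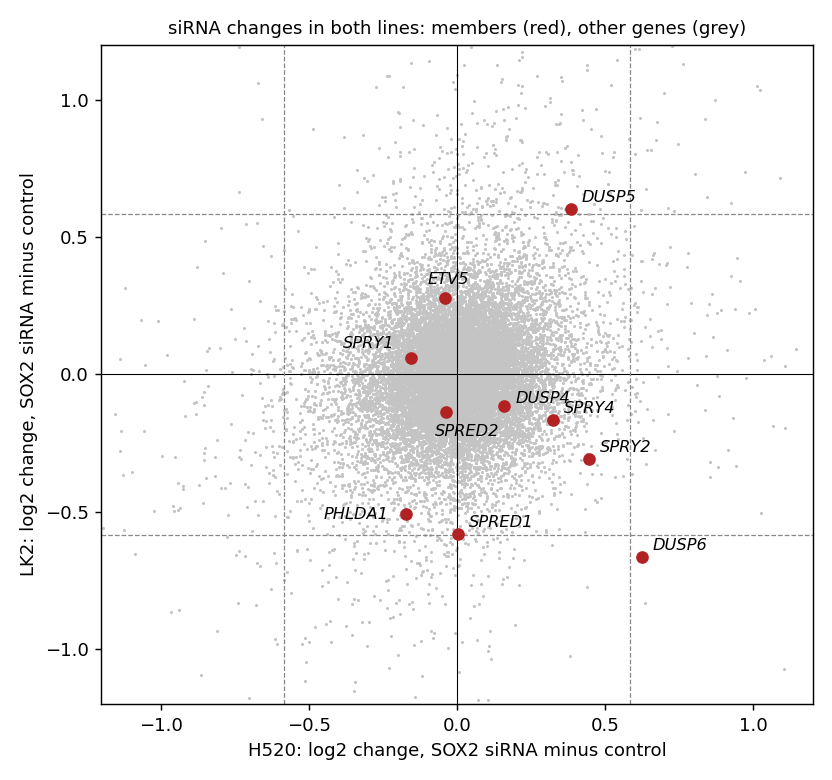
Log2 change with SOX2 siRNA in H520 (horizontal) and LK2 (vertical) for each gene, members in red with their names and the other genes in grey. Dashed lines mark 1.5-fold, and 118 of 18852 genes lie outside the axes. DUSP6 stands at 0.63 and -0.66 beyond both lines, DUSP5 at 0.39 and 0.60, and SPRED1 at 0.00 and -0.58.

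The lines differed from each other at most members. The group was not picked by this contrast, but its members were named with earlier results of these data known. The shares below are therefore a description. The line difference was tested with limma over all genes, with siRNA treatment as a block, and 7 of the 10 members passed an adjusted p of 0.05. Of these, 3 were higher in LK2 (SPRED1, SPRED2 and ETV5), where 14% of all genes were called, and 4 were higher in H520 (DUSP5, DUSP6, SPRY4 and PHLDA1), where 13.4% were. The median size of the line difference was 0.95 for the members and 0.18 for all genes. The 2 treatment arms stand in for replicates in this fit, so its error comes from how unequally the lines responded to the siRNA, moderated over genes.

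PHLDA1 had the largest line difference among the members, -5.08 ± 0.12 (SE) on the log2 scale, a 33.8-fold higher value in H520 (limma, adjusted p = 1.42e-05). It was -4.91 between the control arrays and -5.24 between the treated arrays. ETV5 was higher in LK2 by 1.28 ± 0.12 (limma, adjusted p = 0.000693), and its probes gave 1.27 and 1.29. SPRED1 was higher in LK2 by 1.37 ± 0.15 and SPRED2 by 1.05 ± 0.10, with limma adjusted p-values of 0.00147 and 0.000845. Both Spred genes and ETV5 were above H520 on both arrays of LK2.

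Of the 3 phosphatase genes among the members, DUSP6 and DUSP5 were lower in LK2. Of the 9 other phosphatase, Sprouty and Spred genes measured, 3 were called, where 14% of all genes were called higher in LK2 and 13.4% higher in H520. All 3 were phosphatase genes higher in LK2, DUSP1 by 1.42, DUSP2 by 1.01 and DUSP8 by 0.45 (limma, adjusted p = 0.000285, 0.00152 and 0.0356). DUSP6 differed by -1.36 ± 0.28 (limma, adjusted p = 0.0137), with -0.71 between the control arrays and -2.00 between the treated arrays, so the gap between the lines was wider under SOX2 siRNA. With robust empirical Bayes the adjusted p of DUSP6 was 0.0823, which ends its call. DUSP5 differed by -0.84 ± 0.11 (limma, adjusted p = 0.00238), and without the siRNA block its adjusted p was 0.0535, which ends that call. DUSP4 differed by -0.04, with a 95% interval from -0.32 to 0.24 (limma, adjusted p = 0.848).

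Of the Sprouty genes, SPRY4 passed, at -0.70 ± 0.14 (limma, adjusted p = 0.013), and this rested on 1 probe. ILMN_2086105 gave -2.18, while the other probes gave -0.45, -0.21 and 0.05, and none of these 3 passed when probes were tested separately. SPRY1 differed by -0.23, with an interval from -0.49 to 0.03 (limma, adjusted p = 0.186). SPRY2 differed by 0.29, with an interval from -0.15 to 0.73 (limma, adjusted p = 0.312). In order of the line difference the members ran from SPRED1 through ETV5, SPRED2, SPRY2, DUSP4, SPRY1, SPRY4, DUSP5 and DUSP6 to PHLDA1. Among neighbours in that order, the 95% intervals overlapped for all pairs but SPRED2 with SPRY2 and DUSP6 with PHLDA1.

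**Figure D3:**
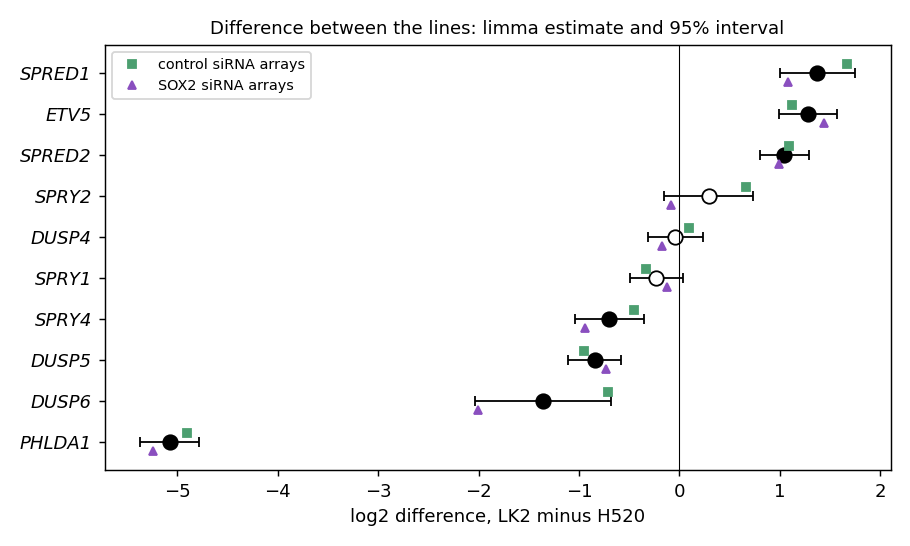
Log2 difference between the lines, LK2 minus H520, for the 10 members. Circles are limma estimates over 4 arrays with 95% intervals, filled where the adjusted p was under 0.05, squares are the control arrays alone and triangles the SOX2 siRNA arrays alone. PHLDA1 lies at -5.08 and SPRED1 at 1.37, and for DUSP6 the square stands at -0.71 and the triangle at -2.00.

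Genes around the members were read from 5 lists of the same pathway, with 61 genes of which 53 had a value. The siRNA effect over both lines was tested with limma with cell line as a block. By it 0 of the 53 passed in either direction, where 0.0053% of all genes were called higher and 0% lower, and 13 of the 53 had an unadjusted p under 0.05, as did 8.4% of all genes. The lists were written with earlier results of these data known, so nothing is read from the 13. No pathway gene passed either when probes were tested separately or without the cell line block. Adjusted p-values of the 53 ran from 0.298 to 0.997. SOX2, the target of the siRNA, did not pass this test either, at -1.38 (limma, adjusted p = 0.33). The test missed the knockdown itself, so the lack of calls cannot show that the pathway genes did not respond.

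The list of ETS factors and ERK target genes had higher values on SOX2 siRNA in H520 for 11 of 13 measured genes, with a median of 0.44 against 0.00 over all genes. In LK2 it was 9 of 13, with a median of 0.11. ETV4, a PEA3 factor like ETV5, was at -0.62 on H520 control, 0.32 on H520 SOX2 siRNA, -0.26 on LK2 control and -0.02 on LK2 SOX2 siRNA, a change of 0.94 in H520 and 0.24 in LK2 (limma over both lines, adjusted p = 0.433). The receptor tyrosine kinase gene EPHA2 changed by 0.63 and 0.41 (limma, adjusted p = 0.298), and the transcription factor gene MYC by 0.59 and -0.05 (limma, adjusted p = 0.755). EPHA4, another ephrin receptor gene, went the other way, by -0.66 and -0.14 (limma, adjusted p = 0.533). The 2 MYC probes gave 0.77 and 0.41 in H520, the latter under 1.5-fold, and 0.04 and -0.14 in LK2. Past 1.5-fold in H520 there were 3 higher and 1 lower of these 13 genes, beside the 0.806% and 1.07% of all genes, and in LK2 there were 0 in either direction, beside 1.9% and 1.3%. The difference between the lines' siRNA changes was not tested.

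**Figure D4:**
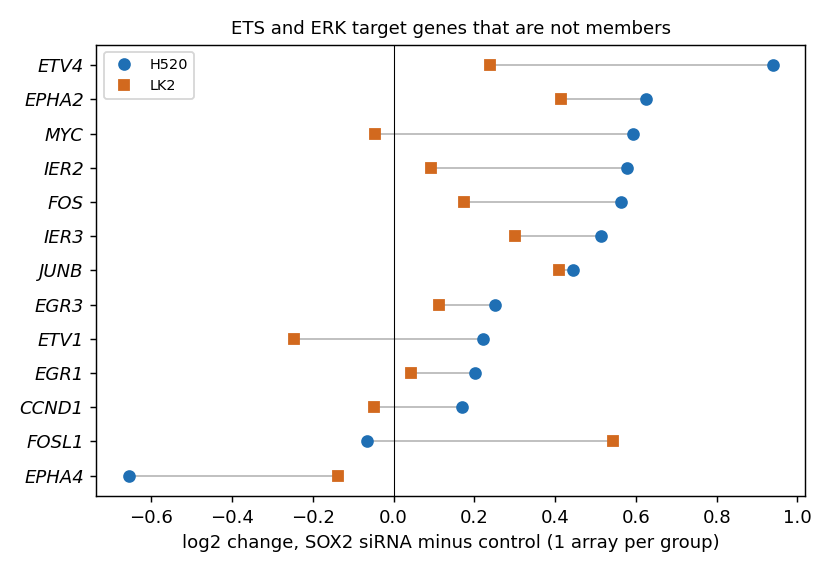
Log2 change with SOX2 siRNA of the 13 measured ETS and ERK target genes that are not members, in H520 (circles) and LK2 (squares), with 1 array per group. In H520, 11 of the 13 lie above 0, led by ETV4 at 0.94, and EPHA4 lies at -0.66.

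In the cascade itself, MAPK3, which encodes ERK1, was at 0.23 on H520 control and -0.45 on H520 SOX2 siRNA, and at -0.23 and -0.51 in LK2. Its change was -0.68 in H520 and -0.28 in LK2 (limma, adjusted p = 0.378). MAP2K1, which encodes the kinase MEK1, changed by -0.65 and -0.34 (limma, adjusted p = 0.355), and the RAS activator gene SOS1 by 0.53 and 0.34 (limma, adjusted p = 0.357). Of 15 measured cascade genes, 6 were higher in both lines on SOX2 siRNA and 5 lower in both. Of the rest, 1 was higher in H520 and lower in LK2, and 3 were the reverse. The median was 0.00 in H520 and 0.08 in LK2. The remaining 6 genes of this list were not analysed here.

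The other phosphatases, Sprouty and Spred genes were 9, of which 5 had higher and 3 lower values in each line, and the median change was 0.02 in H520 and 0.01 in LK2. DUSP10, a phosphatase of the stress kinases p38 and JNK, changed by -0.46 in H520 and -0.25 in LK2 (limma, adjusted p = 0.452). DUSP1, an early phosphatase of several MAP kinases, changed by 0.40 and 0.32 (limma, adjusted p = 0.407), and DUSP8 by 0.02 and 0.33 (limma, adjusted p = 0.791). Among 7 measured negative regulators of RAS, RAF or receptors, 4 had higher and 0 lower values in each line. ERRFI1, a feedback inhibitor of EGFR, changed by 0.17 and 0.58 (limma, adjusted p = 0.503), the RAS inhibitor gene RASA2 by 0.21 and 0.38 (limma, adjusted p = 0.526) and CBL, a ubiquitin ligase of receptors, by 0.09 and -0.34 (limma, adjusted p = 0.886), with probes that disagreed in sign in H520.

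The 9 receptor tyrosine kinase genes showed small changes, none past 1.5-fold, and their median was -0.03 in H520 and 0.09 in LK2. IGF1R changed by -0.04 and 0.35, MET by 0.26 and -0.07 and ERBB3 by 0.21 and 0.11 (0.55 and 0.40 by 1 of its 3 probes and near 0 by the others), with limma adjusted p-values from 0.778 to 0.919. FGFR1 changed by -0.18 and -0.20, and EGFR by -0.10 and -0.09.

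The genes most like DUSP6 over the 4 arrays were found by Euclidean distance between values centred on each gene's own mean. The nearest was TXNIP, at a distance of 0.22 and with changes of 0.53 in H520 and -0.37 in LK2. NDC1 (0.29), DSN1 (0.30), MACF1 (0.32), MYH7B (0.32) and GPC1 (0.32) came next. GPC1, a cell surface proteoglycan gene, changed by 0.88 and -0.34, and MYH7B by 0.50 and -0.25. Among the members the nearest to DUSP6 was SPRY4, at 0.78, with 500 genes nearer, and the median distance over all genes was 1.53. DUSP5 (1.05), SPRY1 (1.36) and DUSP4 (1.41) lay within that median. The other 5 members lay beyond it, SPRY2 at 1.67, SPRED2 at 2.48, ETV5 at 2.76, SPRED1 at 2.77 and PHLDA1 at 3.76 (a distance that includes the line difference).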

How the data were processed

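The members and gene lists were chosen with earlier results of these data known. The authors deposited processed log2 values of 48801 probes on 4 arrays. Which tool, background correction, normalization and centring made them is not stated in the labels. The H520 control column had a mean of 0.00475, and the 4 columns had medians from -0.000497 to 0.00118. The columns were taken as normalized between arrays and centred per probe on a baseline that stays unknown. A scanner table of 4 columns with names that match no sample gave no result. It was set against the processed table only to find the log base: the best match had an absolute r of 0.994 over the brighter probes and a slope of 0.897, nearer to 1, for log2, than to 0.693, for natural logs. Detection p-values were not used, no filter on dim probes was applied, and the background correction written for scanner values was not needed.

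Probes were named from the platform annotation: 28096 had 1 symbol, 13 several and 20692 were not listed there. Probes of one gene were averaged (18852 genes; 0 symbols were updated through RefSeq). Line differences and siRNA effects came from limma 3.58.1 (R 4.3.3), which had 1 residual and 5.19 prior degrees of freedom, two-sided, with Benjamini-Hochberg adjustment over all genes at 0.05, after a test on simulated data. The lines pair the siRNA arms by the labels. No label tells if the arrays are separate experiments, so the p-values cannot be read as a spread between repeated experiments. They rest on how unequally the lines responded to the siRNA, moderated over genes. Named were all members, SOX2, in each list the 3 genes with the largest change in either line plus any past 1.5-fold, and the 6 genes nearest to DUSP6, and some others (FGFR1, EGFR and DUSP2) were named after their values were seen. Alternatives were another fold, single probes, other scaling, no block, and robust or trended variances.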

Additional observations from a re-analysis of the deposited data

Results flagged for a closer look

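In 5 members every probe gave one direction in H520 and the opposite direction in LK2, though SPRY2 and SPRED1 had only 1 probe each. By gene means, 23.7% of all genes were higher in H520 and lower in LK2. The share of all genes with the reverse signs, as in SPRY1, or with every probe agreeing was not counted, so nothing is read from the 5. The difference between the lines' changes, LK2 minus H520, was -1.29 on the log2 scale for DUSP6, -0.75 for SPRY2, -0.59 for SPRED1, -0.28 for DUSP4 and 0.21 for SPRY1. None of these differences was tested, since each line had 1 array per treatment, and the group was chosen for that of DUSP6. SPRED1 changed by only 0.00 in H520, so its sign there says little.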

How the results depend on the processing

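No group has a replicate, so none could be left out. Of 86 alternative values of the members' siRNA changes, 75 moved by less than the spread between probes of a gene and 11 by more. No change past 1.5-fold turned its sign. Many of the 75 had little or no room to move. Re-centring gave 20 of them and shifted no gene by more than 0.00103, and choosing 1 probe cannot move a gene with 1 probe. Renewed quantile normalization moved 5 values and left 15, and 1 probe alone moved 5 and left 21. Which members passed 1.5-fold did depend on the setting. For DUSP6, renewed quantile normalization gave 0.90 in H520 and -0.42 in LK2, the latter under 1.5-fold, and under it DUSP5 lost 1.5-fold in LK2 (0.44) while DUSP5 (0.66) and SPRY2 (0.77) gained it in H520. That step forces the same distribution on all columns, and why it moved these values was not tested. With a 2-fold threshold the H520 counts were 33 higher and 37 lower, and those of LK2 were 94 and 52. Over probes at 1.5-fold the counts were 253, 329, 609 and 407. Of the 10 members, 6 to 7 were called for the line difference under every alternative run. The line difference changed sign by 1 probe of DUSP4 (0.0122) and 1 of SPRY4 (0.0546), for DUSP4 also on control arrays alone (0.0987) and for SPRY2 on SOX2 siRNA arrays alone (-0.0864). The cause was not tested. Without the siRNA block DUSP5, and with robust variances DUSP6, lost the call. Signal over background was not used here, so how far dim probes limit the small changes is not known.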
